A study of Rattus norvegicus with 20 samples.

Results

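The complement genes C1qa, C1qb, C1qc, C3, C3ar1, C5ar1, Itgam, Itgb2 and Serping1 were followed in hippocampal RNA-seq of 20 female rats at 4 months of age. They were taken by symbol, and all 9 symbols had a row among the 17168 genes of each of 2 expression tables. The first table, for genotype, held 5 untreated wild-type rats (WTNT) and 5 untreated transgenic rats (TGNT). The transgenic line was TgF344-AD, which carries human APP with the Swedish mutation and human PS1 lacking exon 9, each under the prion promoter, beside the rat's own copies of both genes. The second table, for treatment, held 4 other TGNT rats on plain chow and 6 transgenic rats (TGTR) fed diazoxide (DZ) at 10 mg/kg/day with dibenzoylmethane (DIB) at 200 mg/kg/day from day 52. Diazoxide opens potassium channels, and dibenzoylmethane is a curcumin-related compound studied as a modulator of the protein synthesis arm of the stress response. Both transgenes were thus shared by all rats of the treatment table, which had no wild-type group. The labels name the left hippocampus as the tissue and the study's methods the right one. The question was whether transcripts of the complement system differed with the transgenes at an early age, and whether they differed between treated and untreated transgenic rats.

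Complement is a protein cascade of innate immunity. C1q, built from the A, B and C chains, binds targets such as antibody, apoptotic debris and amyloid fibrils, and starts the classical pathway. C3, on which all routes of activation converge, is cleaved into a fragment that tags surfaces and a small peptide, C3a, that signals through the receptor C3AR1. C5AR1 is the receptor for the corresponding peptide of C5. ITGAM (CD11b) and ITGB2 (CD18) pair to form complement receptor 3, the phagocytic receptor for C3 fragments on microglia and other myeloid cells. SERPING1 is the C1 inhibitor, which blocks the proteases C1r and C1s. In brain, C1q comes mainly from microglia, and C1q and C3 are known for tagging synapses for removal, including in mouse models of Alzheimer's disease.

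The 3 C1q genes lay side by side in the RefSeq gene table of the GRCr8 assembly, in the order C1qb, C1qc, C1qa, with no other protein-coding gene between them. C5ar1 neighboured C5ar2 there, and Itgam neighboured Itgax. The 250 bases before the start of C1qa, C1qb and C3 are shown from RefSeq (GRCr8), 5′ to 3′ on the strand of the gene, because these are the start of the classical pathway and the protein on which the cascade converges. Capitals mark each match, on either strand, to GGAAGT, the core of sites bound by ETS-family factors such as PU.1, or to TTNNGNAA, a C/EBP-type site. The 3 regions, all on the minus strand, are chr5:154419934-154420183, chr5:154407828-154408077 and chr9:2201340-2201589.
C1qa: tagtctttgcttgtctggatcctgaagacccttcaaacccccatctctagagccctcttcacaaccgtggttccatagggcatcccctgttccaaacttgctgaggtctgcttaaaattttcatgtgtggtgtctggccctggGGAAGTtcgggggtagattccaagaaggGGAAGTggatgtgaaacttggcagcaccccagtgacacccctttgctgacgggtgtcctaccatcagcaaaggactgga
C1qb: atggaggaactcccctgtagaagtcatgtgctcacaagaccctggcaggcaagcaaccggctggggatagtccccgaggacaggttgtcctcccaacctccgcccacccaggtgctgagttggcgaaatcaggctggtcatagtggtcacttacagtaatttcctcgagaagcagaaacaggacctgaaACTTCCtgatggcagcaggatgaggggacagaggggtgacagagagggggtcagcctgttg
C3: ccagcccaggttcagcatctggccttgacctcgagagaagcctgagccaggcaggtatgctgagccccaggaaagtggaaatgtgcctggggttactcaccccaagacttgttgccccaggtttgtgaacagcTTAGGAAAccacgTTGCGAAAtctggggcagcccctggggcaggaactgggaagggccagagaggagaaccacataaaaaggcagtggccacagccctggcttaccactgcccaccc
GGAAGT or its reverse complement occurred 2 times before C1qa and 1 time before C1qb, and 0 times before C3, C3ar1 and Itgam. TTNNGNAA, searched likewise, occurred 2 times each before C3 and Itgam, and 0 times before C1qa, C1qb and C3ar1. In all 33469 promoter windows of the same length, 19.2% held GGAAGT and 37.2% held TTNNGNAA, so either match is common. A window was available for 5 of the 9 genes, and C1qc, C5ar1, Itgb2 and Serping1 are named only.

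Libraries held 5848458 to 9926088 estimated counts in the genotype table and 9215039 to 14175594 in the treatment table. Levels are given as reads per 1000000 reads (RPM), which the authors scaled with TMM factors, in which 1 read was worth 0.0706 to 0.171 RPM. The 2 tables were normalized separately, so groups were tested only within a table. Rat App, whose row also takes reads from the transgene, was 1031 to 1160 RPM without the transgenes and 2071 to 2364 RPM in the TGNT rats beside them, which did not overlap. The summed level of the 15 microglia markers measured was 441 to 512 RPM in the WTNT and 493 to 534 RPM in the TGNT rats of the genotype table, and 493 to 535 RPM in the TGNT and 485 to 534 RPM in the TGTR rats of the treatment table. Neutrophil markers were near 0, with at most 5 reads of S100a8, S100a9, Camp or Ngp in any rat and 0 of Mmp8 in all rats. One treated library, TGTR replicate 5, stood apart, with 10 choroid plexus markers summing to 3689 RPM against at most 303 RPM in the other TGTR and 140 RPM in the TGNT rats, and 11 vascular and meningeal markers summing to 893 RPM against at most 306 RPM. TGTR replicate 6 carried a smaller choroid plexus signal. Its mean log2(RPM + 1) of the 10 markers was 3.16, against 1.32 to 1.57 in TGTR replicates 1 to 4 and 1.46 to 1.91 in the TGNT rats. TGTR replicate 4 carried the most blood signal, 676 RPM over the blood markers against at most 146 RPM in the other TGTR rats. In these bulk samples, fewer cells of a type and less RNA per cell cannot be told apart.

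None of the 9 complement genes passed the test in either comparison. In the genotype comparison 0 of 9 had an adjusted p under 0.05 with a fold of at least 1.5 (edgeR quasi-likelihood test, Benjamini-Hochberg over all 17168 genes), against 0.0116% of all genes. At an unadjusted p under 0.05 the count was 1 of 9, C5ar1, higher in TGNT, against 3.23% of all genes in either direction and 1.72% in that direction. In the treatment comparison 0 of 9 passed, against 0.00% of all genes, and 0 of 9 had an unadjusted p under 0.05, against 4.91% of all genes. DESeq2, run as an alternative, also called 0 in both. Groups overlapped in RPM for 9 of 9 genes in each comparison, while 0.601% of genes with reads in the genotype table and 1.33% in the treatment table had groups that did not overlap. Of the 9 genes, 8 had the higher mean in TGNT rats. The median of their log2 fold changes was 0.10, where 52.0% of all genes with reads were higher and their median was 0.0068. Beside this, 13 of the 15 microglia markers had the higher mean in TGNT rats, also with a median log2 fold change of 0.10. Of these markers 1 had an unadjusted p under 0.05 and 0 had an adjusted p under 0.05 (edgeR). Their mean log2(RPM + 1) was 3.98 to 4.13 in the WTNT and 4.14 to 4.19 in the TGNT rats, without overlap. Their summed RPM, given above, did overlap between the groups. The part of the microglia markers in the levels of the 9 genes was not tested. In the treatment comparison 4 of 9 were higher in TGTR, with a median of −0.01, where 50.2% of all genes with reads were higher. Without TGTR replicate 5 this count was 6 of 9.

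**Figure D1:**
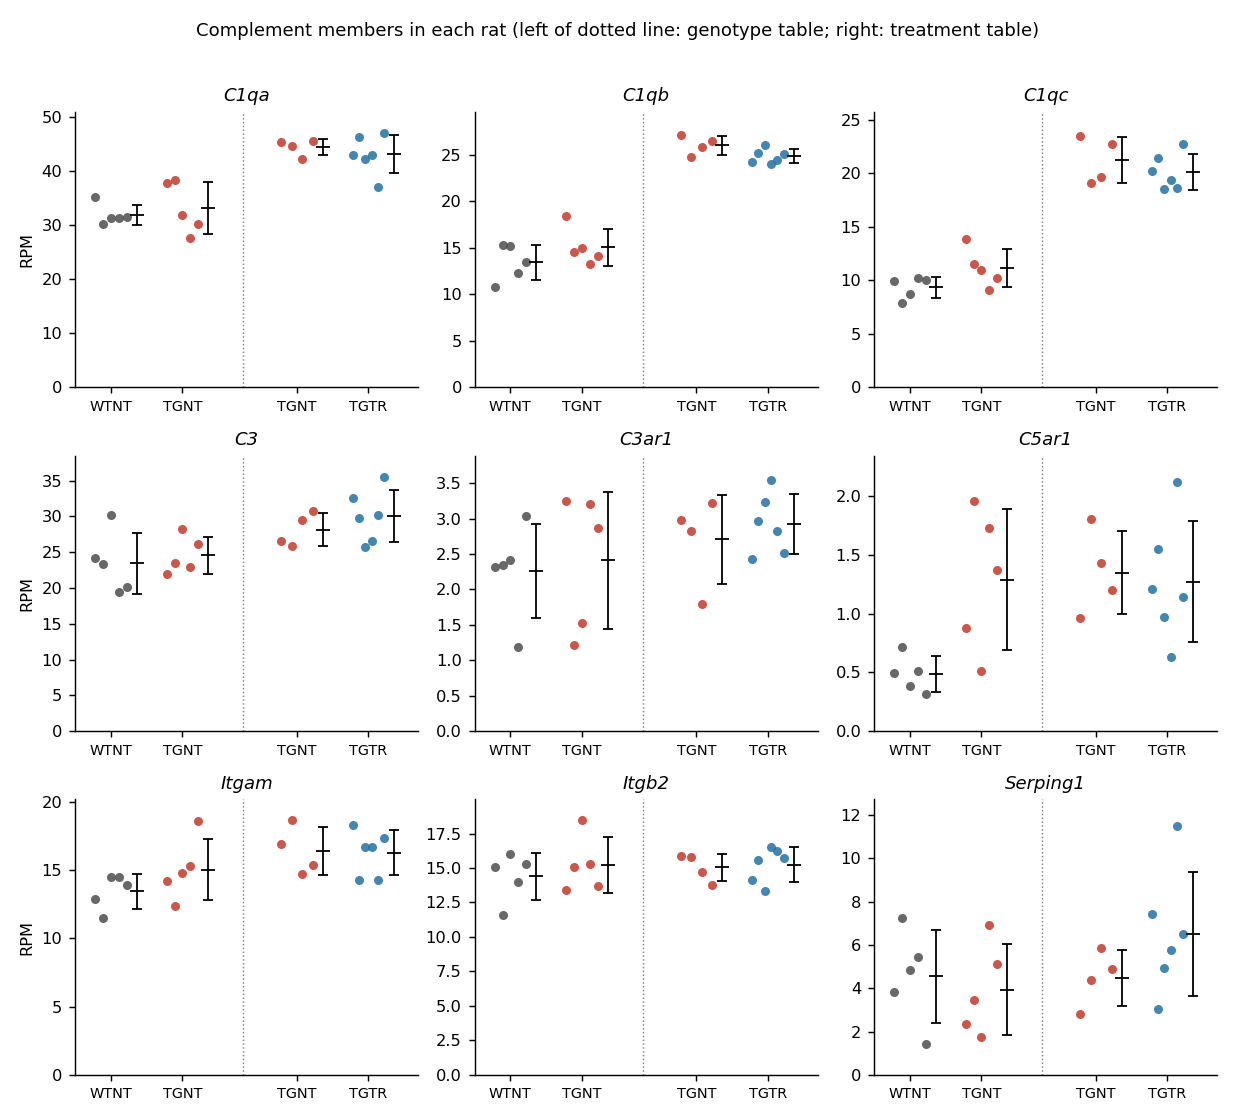
RPM (y axis, linear from 0) of each of the 9 complement genes in every rat, with WTNT and TGNT of the genotype table left of the dotted line and TGNT and TGTR of the treatment table right of it; points are rats and bars the group mean ± SD. Groups overlap in every panel on both sides of the line, and the 5 WTNT rats of C5ar1 lie between 0.319 and 0.716 RPM with 4 of 5 TGNT rats above them.

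C1qa, the A chain, was 35.1, 30.2, 31.2, 31.2 and 31.5 RPM in WTNT replicates 1 to 5 and 37.8, 38.3, 31.8, 27.5 and 30.2 RPM in TGNT replicates 1 to 5. Of the TGNT rats, 2 were above all WTNT rats and 2 were at or below the lowest of them, so the group was wider but centred alike, at 33.1 ± 4.78 (SD, n = 5) against 31.9 ± 1.90 RPM (SD, n = 5). The log2 fold change was 0.06 (SE 0.0957, 95% interval −0.14 to 0.27, edgeR adjusted p = 1). C1qb, the B chain, was 10.8, 15.3, 15.2, 12.3 and 13.5 RPM in WTNT and 18.4, 14.5, 15, 13.3 and 14.1 RPM in TGNT rats. Only TGNT replicate 1 exceeded the WTNT range, and the log2 fold change was 0.16 (SE 0.124, edgeR adjusted p = 1).

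C1qc, the C chain, differed most of the 3. It was 9.94, 7.87, 8.75, 10.2 and 10.0 RPM in WTNT and 13.9, 11.5, 11.0, 9.08 and 10.2 RPM in TGNT rats. In 3 of 5 TGNT rats it was above every WTNT rat, while the other two lay within the WTNT range. The means were 9.37 ± 1.02 and 11.1 ± 1.78 RPM (SD, n = 5 each), and the log2 fold change was 0.27 (SE 0.135, 95% interval −0.02 to 0.55). Neither test placed this beyond the spread between rats, with an unadjusted p of 0.0669 and an adjusted p of 1 by edgeR, and p = 0.0794 by the exact two-sided permutation test over 252 arrangements, whose smallest possible p is 0.00794. With each rat dropped in turn the log2 fold change ran from 0.18 to 0.32. The unadjusted edgeR p then ran from 0.0341, without TGNT replicate 4, to 0.209, without TGNT replicate 1. The lowest adjusted p of C1qc under any alternative was 0.92.

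With treatment the C1q genes were closely matched between groups. C1qa was 45.4, 44.5, 42.2 and 45.5 RPM in TGNT rats, and in the 6 TGTR rats its lowest, median and highest values were 37.0, 43.0 and 47.0 RPM. The lowest value was that of TGTR replicate 5, the library with the most choroid plexus signal. The fold was 0.973 (95% interval 0.885 to 1.07), and without that rat the log2 fold change was 0.0016 in place of −0.04. C1qb was 27.1, 24.7, 25.8 and 26.5 RPM in TGNT rats, and 24.0, 24.8 and 26.0 RPM at the lowest, median and highest in TGTR rats. Of these, 3 TGTR rats were below every TGNT rat and 3 lay among them. The fold was 0.955 (95% interval 0.880 to 1.04), the exact two-sided permutation p was 0.0714 over 210 arrangements, with 0.00476 the smallest possible, and the edgeR adjusted p was 1. C1qc was 23.5, 19.1, 19.7 and 22.7 RPM in TGNT rats and 18.5, 19.8 and 22.7 RPM at the lowest, median and highest in TGTR rats, with a fold of 0.950 (95% interval 0.837 to 1.08). A difference of 1.2-fold or more in any of the 3 C1q genes lay outside these intervals.

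Within a library the 3 C1q genes kept different proportions in the 2 tables. Per C1qa read there were 0.307 to 0.508 C1qb reads in the 10 rats of the genotype table and 0.534 to 0.661 in the 10 rats of the treatment table, so that the ranges did not meet. For C1qc the ratios were 0.261 to 0.366 and 0.429 to 0.517. Such a ratio within a library does not depend on the scaling of that library. Both tables held untreated transgenic rats, in which C1qc per C1qa was 0.336 ± 0.0246 (SD, n = 5) in the genotype table and 0.478 ± 0.0391 (SD, n = 4) in the treatment table. All C1q reads together numbered 9.87 to 13.9 per 100 microglia marker reads in the genotype table and 16.2 to 18.7 in the treatment table. The table and anything that went with it, such as depth, cannot be told apart, and no test was made between tables. Within each table the groups overlapped for all 3 ratios.

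**Figure D2:**
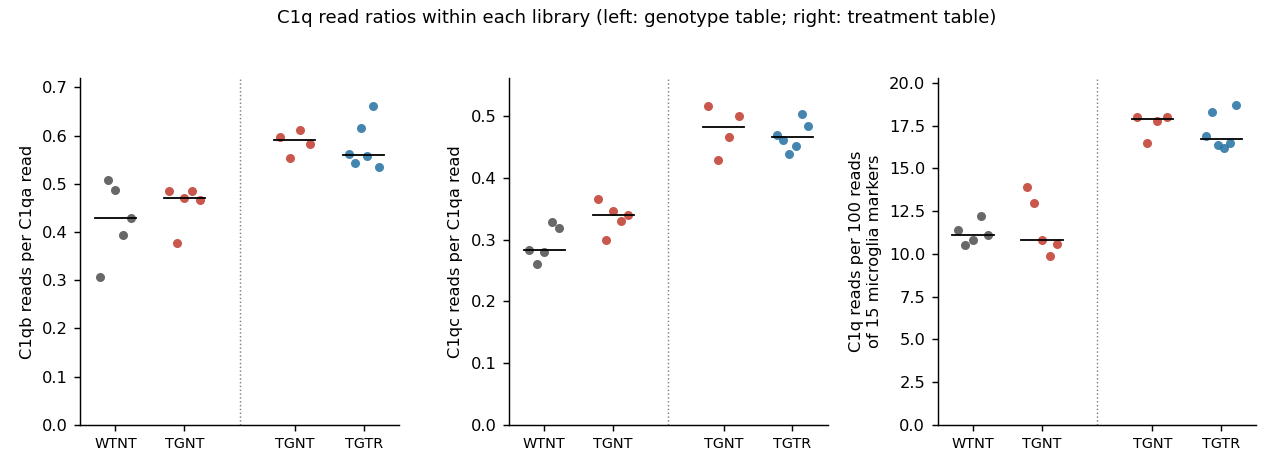
Reads of C1qb per C1qa read, of C1qc per C1qa read, and of all C1q genes per 100 reads of 15 microglia markers (y axes, linear from 0) in each library, with the genotype table left and the treatment table right of the dotted line; points are rats and bars group medians. The 10 rats of each table form separate bands, such as 0.261 to 0.366 against 0.429 to 0.517 for C1qc per C1qa, while groups within a table overlap.

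C3 differed less between groups than among rats of a group. It was 24.2, 23.3, 30.2, 19.5 and 20.1 RPM in WTNT and 22, 23.5, 28.3, 23.0 and 26.2 RPM in TGNT rats, all TGNT values lying within the WTNT range (log2 fold change 0.07, SE 0.119, edgeR adjusted p = 1). Among treated and untreated transgenic rats it was 26.6, 25.9, 29.5 and 30.7 RPM in TGNT, with a lowest, median and highest value of 25.8, 30.0 and 35.5 RPM in TGTR rats. TGTR replicates 6 and 1 were the highest of the table, and the log2 fold change was 0.10 (SE 0.091, 95% interval −0.10 to 0.29, edgeR adjusted p = 1). Without TGTR replicate 6 the log2 fold change was 0.043.

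The receptor for C3a had few reads. C3ar1 had 7 to 26 reads per rat in the genotype table, at 2.32, 2.35, 2.41, 1.19 and 3.03 RPM in WTNT and 3.25, 1.21, 1.52, 3.20 and 2.87 RPM in TGNT rats. The TGNT rats fell both at the bottom and at the top of the range, and the log2 fold change of 0.10 had an interval from −0.55 to 0.74. Leaving out WTNT replicate 4 gave −0.05, and leaving out TGNT replicate 1 or 4 gave −0.028 or −0.03. The treatment table gave C3ar1 at 2.98, 2.83, 1.8 and 3.22 RPM in TGNT rats, and 2.43, 2.90 and 3.55 RPM at the lowest, median and highest in TGTR rats. The log2 fold change was 0.12 (SE 0.193, 95% interval −0.30 to 0.53), and it was −0.042 without TGNT replicate 3.

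The chains of complement receptor 3 were more evenly measured. Itgam, the alpha chain and a common microglial and myeloid marker, was 12.9, 11.5, 14.5, 14.5 and 13.9 RPM in WTNT and 14.2, 12.4, 14.8, 15.3 and 18.6 RPM in TGNT rats. In 3 of 5 TGNT rats it was above all WTNT rats, and the log2 fold change was 0.18 (SE 0.122, 95% interval −0.08 to 0.44, edgeR adjusted p = 1). Itgb2, the beta chain shared by several leukocyte integrins, was 15.1, 11.6, 16, 14 and 15.3 RPM in WTNT and 13.4, 15.1, 18.5, 15.3 and 13.7 RPM in TGNT rats. Only TGNT replicate 3 exceeded the WTNT range, and the log2 fold change was 0.09 (SE 0.123, 95% interval −0.17 to 0.35). The 2 chains were highest in different rats, Itgam in TGNT replicate 5 and Itgb2 in TGNT replicate 3. Itgb2 was the member whose estimated count was not whole in any of the 20 rats, meaning that some of its reads were shared with another transcript and divided by estimate. The other 8 genes had whole counts in all 10 rats of each table.

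Between treated and untreated transgenic rats neither chain passed the test. Itgam was 16.9, 18.7, 14.7 and 15.4 RPM in TGNT rats, and 14.3, 16.7 and 18.3 RPM at the lowest, median and highest in TGTR rats (fold 0.995, 95% interval 0.860 to 1.15). Itgb2 was 15.9, 15.8, 14.7 and 13.8 RPM in TGNT rats and 13.3, 15.7 and 16.5 RPM at the lowest, median and highest in TGTR rats (fold 1.01, 95% interval 0.891 to 1.15). Both intervals exclude a change of 1.5-fold, the size used for a call. The sign of either chain turned when single rats were left out.

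C5ar1 showed the largest fold of the 9 genes, at the lowest read counts. WTNT replicates 1 to 5 had 3, 7, 3, 3 and 2 reads (0.497, 0.716, 0.380, 0.512 and 0.319 RPM), and TGNT replicates 1 to 5 had 7, 13, 4, 13 and 11 reads (0.874, 1.96, 0.507, 1.73 and 1.37 RPM). In 4 of 5 TGNT rats the level was above all WTNT rats, and TGNT replicate 3 lay among them. The means were 0.485 ± 0.152 and 1.29 ± 0.600 RPM (SD, n = 5 each), a fitted fold of 2.52 (95% interval 1.34 to 4.71) and a log2 fold change of 1.33 (SE 0.425). The unadjusted p was 0.00683 by edgeR, but the adjusted p was 1, and the exact two-sided permutation p of the RPM was 0.0238, where 3.87% of genes with reads had a permutation p under 0.05. This difference therefore did not pass the correction. With each rat dropped in turn it lay between 1.13 and 1.56, while limma-trend on log2(RPM + 1), which draws low values together, gave 0.59. Neighbouring C5ar2, the second C5a receptor, had 1 to 6 reads per rat and a log2 fold change of −0.39 (SE 0.479).

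The treatment table gave C5ar1 at 0.964, 1.8, 1.43 and 1.2 RPM in TGNT rats, from 11 to 21 reads, and 0.631, 1.17 and 2.12 RPM at the lowest, median and highest in TGTR rats, from 8 to 22 reads. TGTR rats held both the lowest and the highest value, and the highest was TGTR replicate 5. The log2 fold change was −0.10 (SE 0.314, 95% interval −0.78 to 0.58), −0.28 without that rat and 0.037 without TGTR replicate 4. Neutrophils also carry this receptor, and their markers had at most 5 reads in any rat, as given above. The part of neutrophils in the C5ar1 reads was not tested.

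**Figure D3:**
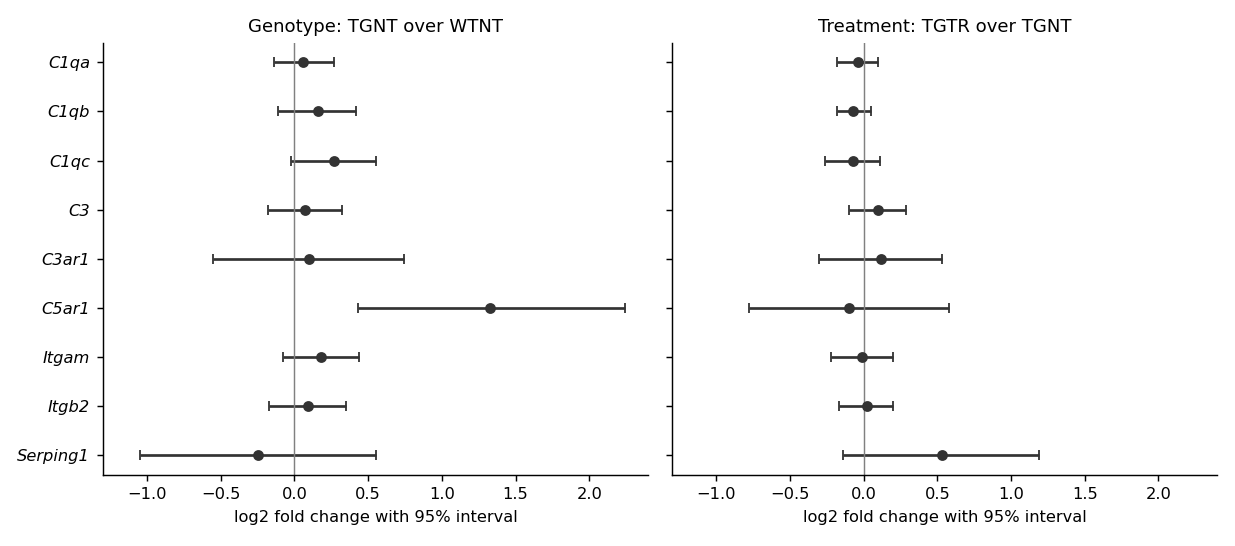
Log2 fold change (x axis) of each of the 9 complement genes, TGNT over WTNT on the left and TGTR over TGNT on the right, as points with 95% intervals from the edgeR fit. C5ar1 in the genotype comparison, at 1.33 (0.43 to 2.24), is the one interval that leaves out 0 before correction over all genes, and the intervals of C1qa and C1qb are the narrowest in the treatment comparison.

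Serping1, the C1 inhibitor, varied most from rat to rat among the members with more than a few reads. It was 3.81, 7.26, 4.82, 5.46 and 1.43 RPM in WTNT and 2.37, 3.47, 1.77, 6.94 and 5.11 RPM in TGNT rats. Both groups spanned nearly the same range, with a coefficient of variation of 47.2% and 53.5%, against 5.98% and 14.4% for C1qa. The log2 fold change was −0.25 (SE 0.375, 95% interval −1.05 to 0.55, edgeR adjusted p = 1), and it was −0.56 when TGNT replicate 4 was dropped and 0.016 when WTNT replicate 2 was.

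These levels were set beside the cell type markers, and no relation passed the correction. After group means were removed, Serping1 correlated across the 10 rats of the genotype table with the mean log2(RPM + 1) of 5 myelin and oligodendrocyte markers (Mbp, Mog, Mag, Mobp and Cnp) at Pearson's r = 0.86 and Spearman's rho = 0.75. The exact permutation p was 0.00715 for r and 0.0238 for rho, and adjusted over the 48 relations of C1q, C3 and Serping1 with 8 marker lists, computed after the values were seen, these became 0.237 and 0.286. Without the 2 rats farthest from the median of the marker level r was 0.70. The same 5 markers each had the lower mean in TGNT rats (median log2 fold change −0.27), and their sum spanned 2245 to 4819 RPM in the 5 WTNT rats against 2222 to 3396 RPM in the 5 TGNT rats. Of the 5 markers, 2 had an unadjusted p under 0.05 by edgeR, against 3.23% of all genes in either direction. The number with an adjusted p under 0.05 was 0. For the treatment table r was 0.31 and rho 0.35 (exact permutation p = 0.432 and 0.355, adjusted p = 0.71 and 0.656), and r was 0.90 without the 2 farthest rats. With the 8 neuron markers Serping1 had r = −0.82 and rho = −0.87 in the genotype table (exact permutation p = 0.00986 and 0.00549, adjusted p = 0.237 and 0.155; r was −0.73 without the 2 farthest rats), and r = −0.49 in the treatment table (p = 0.237 by the exact test). With 3 blood markers (Hbb, Hbb-b1 and Alas2) r was −0.77 in the genotype table (exact permutation p = 0.018, adjusted p = 0.288) and 0.09 in the treatment table. The part of these cell types in the level of Serping1 was not tested.

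For treatment, Serping1 was 2.80, 4.37, 5.86 and 4.88 RPM in TGNT rats and 7.42, 3.03, 4.93, 5.76, 11.5 and 6.49 RPM in TGTR replicates 1 to 6. Of the TGTR rats 3 were above all TGNT rats, the highest being TGTR replicate 5. The means were 4.48 ± 1.28 (SD, n = 4) and 6.52 ± 2.86 RPM (SD, n = 6), and the log2 fold change was 0.53 (SE 0.309, 95% interval −0.14 to 1.19). The adjusted p was 0.99 by edgeR and the exact two-sided permutation p was 0.224. Without TGTR replicate 5, whose choroid plexus and meningeal markers are given above, the log2 fold change was 0.30. Across the 10 rats Serping1 correlated with the mean of the 10 choroid plexus markers at r = 0.71 and rho = 0.66 (exact permutation p = 0.0598 and 0.0491, adjusted p = 0.404 and 0.369). Without the 2 farthest rats r was 0.15. After group means were removed those rats were TGTR replicate 5 and TGTR replicate 2. Replicate 2 had the lowest Serping1 of the TGTR rats and a marker mean of 1.32. TGTR replicate 6, with the smaller choroid plexus signal, was kept.

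**Figure D4:**
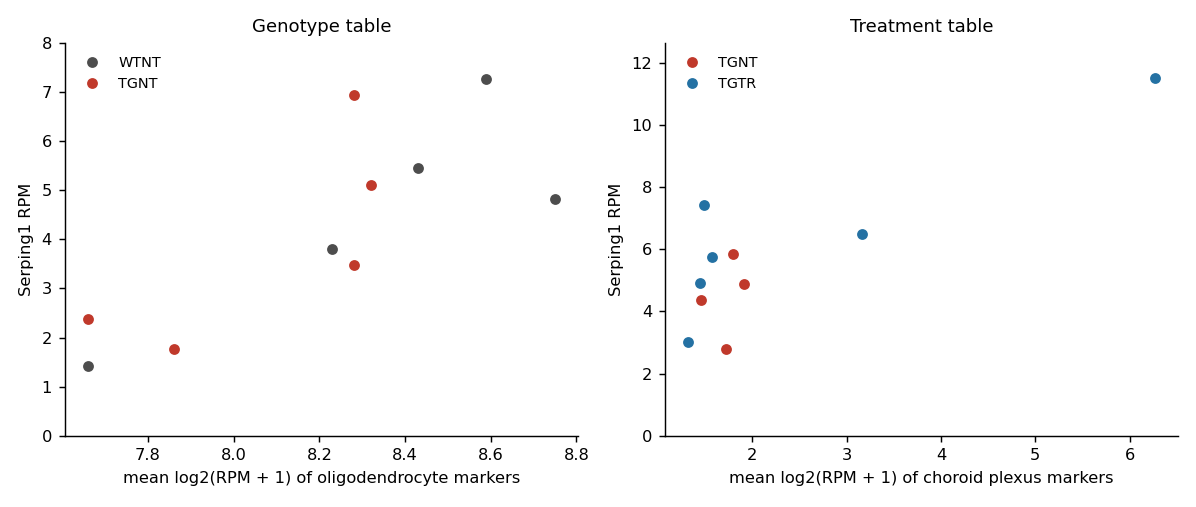
Serping1 RPM (y axis, linear from 0) in each rat against the mean log2(RPM + 1) (x axis) of oligodendrocyte markers in the genotype table (left) and of choroid plexus markers in the treatment table (right), with points coloured by group. On the left both groups spread along the x axis with the lowest Serping1 level, 1.43 RPM, in a rat low in the markers, and on the right TGTR replicate 5 sits alone at a marker mean of 6.27 and 11.5 RPM.

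Other genes of the complement system, 50 symbols grouped by role, had 40 rows in the tables, of which 39 held reads in each. Of these 39, 0 passed the adjusted threshold in either comparison, and 2 for genotype and 1 for treatment had an unadjusted p under 0.05, all higher (edgeR). The background was 1.72% of all genes for genotype and 2.98% for treatment in that direction. On average 24 of 39 were higher in TGNT than WTNT rats (median log2 fold change 0.05), where 52.0% of all genes with reads were. For treatment 26 of 39 were higher in TGTR than TGNT rats (median 0.12), where 50.2% of all genes with reads were. The treatment count is given with TGTR replicate 5 included. Among the proteases and carriers of the classical and lectin pathways, 0 of 13 reached an unadjusted p under 0.05 in either comparison. Masp1, a lectin pathway protease, was 25.2 ± 2.89 RPM in WTNT and 28.9 ± 3.47 RPM in TGNT rats (log2 fold change 0.20, SE 0.103). C4a, a form of the C4 that C1s cleaves, and C1r, the protease SERPING1 inhibits, had log2 fold changes of 0.03 and 0.00. In the treatment table C4a was 59.6 RPM in TGTR replicate 5 and 22.6 to 27.4 RPM in the other TGTR rats. C4a and C1r had counts that were not whole in all rats, so their reads were in part shared.

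In the alternative pathway, where 0 of 3 genes reached an unadjusted p under 0.05, factor B (Cfb) was 7.37 ± 1.57 and 7.90 ± 1.55 RPM in WTNT and TGNT rats (SD, n = 5 each). In the treatment table it reached 15.6 RPM in TGTR replicate 5 and at most 9.01 RPM in the other TGTR rats. Properdin (Cfp), which stabilizes the alternative convertase, had log2 fold changes of 0.35 (SE 0.229) and −0.07 (SE 0.195), and Cfd, factor D, had at most 12 reads in any rat. Terminal pathway genes, which form the membrane attack complex, were near the limit of detection. C8g was highest at 0 to 28 reads per rat, C6 had at most 6 reads, C8b at most 2, and C9 had 0 in every rat of the treatment table. Of the terminal genes 0 of 5 and 0 of 4 reached an unadjusted p under 0.05.

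Soluble regulators held 2 of the 3 genes with an unadjusted p under 0.05. Vtn, vitronectin, which inhibits the terminal complex and is made in brain by pericytes among other cells, was 8.29, 7.16, 12.7, 8.19 and 11.3 RPM in WTNT and 11.7, 13.6, 12.3, 13.9 and 13.7 RPM in TGNT rats. Of the TGNT rats 3 were above all WTNT rats, and the log2 fold change was 0.46 (SE 0.152, unadjusted p = 0.00869 and adjusted p = 1 by edgeR, exact permutation p = 0.0238). In the treatment table Vtn was 37.9 RPM in TGTR replicate 5, and its log2 fold change of 0.39 was 0.075 without that rat. Clu, clusterin, an abundant inhibitor of the terminal complex, was 582 ± 17.9 RPM in WTNT and 633 ± 44.9 RPM in TGNT rats (log2 fold change 0.13, SE 0.0592, unadjusted p = 0.049 and adjusted p = 1 by edgeR). The exact two-sided permutation p of Clu was 0.0556, and the unadjusted p was over 0.05 in most alternatives, 0.065 with RLE scaling and up to 0.165 without 1 rat. C4bpb, a chain of the C4b-binding protein, had at most 16 reads in any rat.

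Among membrane regulators, Cd55, decay-accelerating factor, was 2.89, 1.97, 2.33 and 1.29 RPM in TGNT and 3.07, 3.88, 2.83, 2.37, 4.75 and 3.41 RPM in TGTR rats. In 4 of 6 TGTR rats it was above all TGNT rats (log2 fold change 0.66, SE 0.245, unadjusted p = 0.0183, adjusted p = 0.964 by edgeR), and it was 0.55 without replicate 5. The neuronal regulators Sez6 and Csmd1 had log2 fold changes of 0.01 and 0.05 for genotype and 0.01 and −0.03 for treatment. Cd200, listed with the membrane regulators but the ligand of CD200R, an inhibitory receptor of myeloid cells, and not itself a regulator of complement, had 0.08 and 0.17. Of the other complement receptors, C1qbp, a C1q binding protein found mostly in mitochondria, had log2 fold changes of 0.06 and 0.04, and Cd93, an endothelial and myeloid receptor once described as a C1q receptor, had 0.07 and 0.16.

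**Figure D5:**
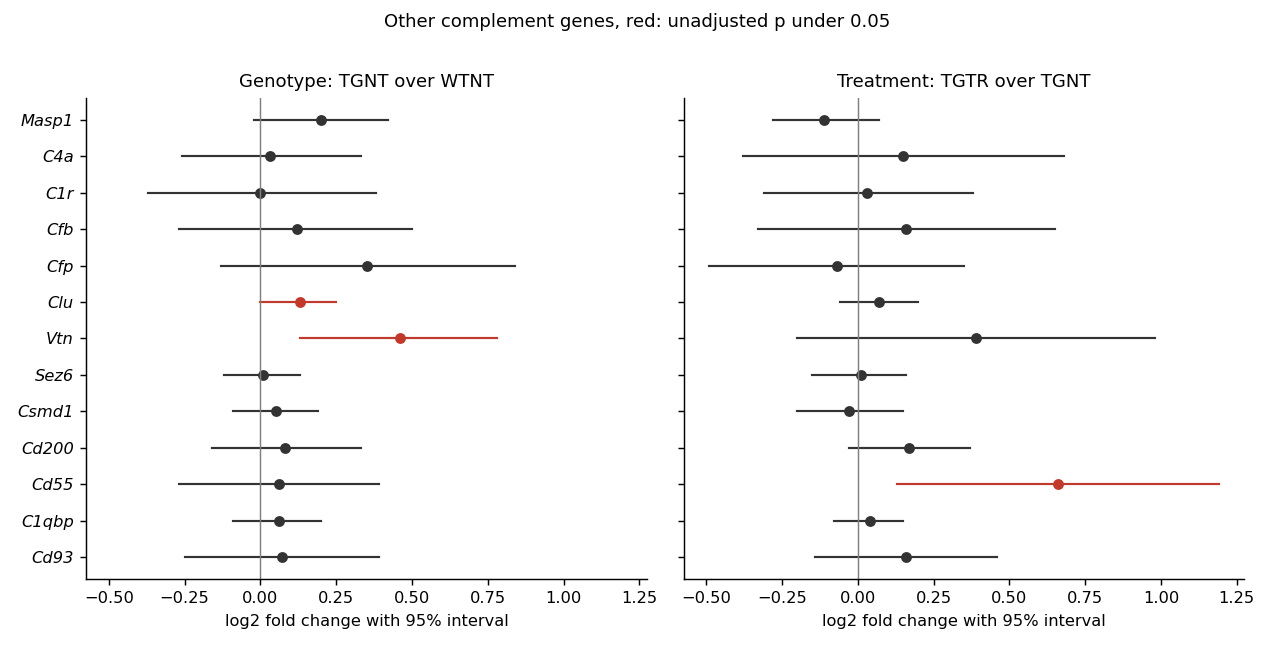
Log2 fold change (x axis) with 95% intervals of 13 named genes of the pathway lists, outside the 9, that averaged at least 10 counts in both tables, TGNT over WTNT on the left and TGTR over TGNT on the right, with red for an unadjusted p under 0.05. Vtn at 0.46 and Clu at 0.13 are red on the left, Cd55 at 0.66 on the right, and none passed the adjusted threshold.

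The members were compared with each other across rats, using log2(RPM + 1) with group means removed. Of 36 pairs in each table, 0 had an adjusted p under 0.05 (exact permutation within groups, Benjamini-Hochberg over all 72 pairs, lowest adjusted p = 0.452), while 3 pairs in the genotype table and 1 in the treatment table had an unadjusted p under 0.05. C1qa with C1qc was the one pair among these in both tables. Its r was 0.78 (rho 0.81) in the genotype and 0.71 (rho 0.73) in the treatment table, with exact permutation p = 0.0126 and 0.0112 for r and 0.00562 and 0.0215 for rho. The adjusted p for rho was 0.405 and 0.643. Without the 2 farthest rats r was 0.75 and 0.69. C1qb, whose gene lies next to C1qc, had an r with C1qc of 0.15 and 0.49 (exact permutation p = 0.687 and 0.201). Without the 2 farthest rats that r was −0.18 and 0.75. With C1qa the r of C1qb was 0.17 and 0.26 (exact permutation p = 0.685 and 0.471), and neither pair passed the test. The other 2 pairs of the genotype table were C5ar1 with Serping1 (r = 0.70) and C1qc with Serping1 (r = −0.67). The chains of complement receptor 3, Itgam and Itgb2, had an r of 0.19 in the genotype table (exact permutation p = 0.636) and −0.06 in the treatment table (p = 0.886).

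The genes most like C1q were sought by the correlation of each gene averaging at least 10 counts with the mean of C1qa, C1qb and C1qc, taking the lower r of the 2 tables over 11340 genes and 10 rats in each. Gaa, the lysosomal enzyme that degrades glycogen, was first, with r = 0.85 and 0.93. It was followed by LOC690806, Prpf6, Nyap1, Sin3b, Atn1, Prkar1b, Thap3, Ptpn23 and Dhx8, with r of 0.71 to 0.85. The 15 microglia markers had a median r of 0.06 and 0.17 with C1q, the highest being Selplg at 0.60 and 0.77, so none stood among the first 10. The mean level of these markers had r = −0.19 with C1q in the genotype table and 0.48 in the treatment table. C3 had r = 0.70 and rho = 0.84 with it in the genotype table (exact permutation p = 0.0796 and 0.00646, adjusted p = 0.404 and 0.155; r was 0.82 without the 2 farthest rats), and r = −0.43 in the treatment table. With the 8 neuron markers C1q had r = 0.68 in the genotype table (exact permutation p = 0.0345, adjusted p = 0.331) and 0.51 in the treatment table. With the 5 astrocyte markers C1q had r = −0.42 and rho = −0.68 in the genotype table (exact permutation p = 0.029 and 0.0196, adjusted p = 0.331 and 0.286). In the treatment table these were 0.00 and −0.15. For C3 the first genes by likeness were Capg, a myeloid actin-capping protein, with r = 0.84 and 0.73, then Bphl, Ptges3l1, Sp110 and Got1. For Serping1 they were Ltbp1, a matrix protein that binds latent TGF-beta, with r = 0.84 and 0.89, then Pak7, Tf, Itfg3 and Hltf. Tf, transferrin, made in brain by oligodendrocytes and choroid plexus, had r = 0.82 and 0.88. The rankings by likeness are descriptions over rats that share libraries and scaling, with no test.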

How the data were processed

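RNA from the hippocampus of 20 rats was made into stranded mRNA libraries. Per the labels, the submitters' processing notes name bcl2fastq 2.17, Bowtie2 2.1.0, RSEM 1.2.15, edgeR and the rn6 build. The authors deposited 2 tables of RSEM estimated counts, and 2 tables of normalized signal, reads per 1000000 (RPM) scaled with TMM factors. Reads that match several transcripts were divided by estimate. Here estimated counts were rounded and tested with edgeR 4.0.16 (R 4.3.3), quasi-likelihood, TMM, all 17168 genes per table, Benjamini-Hochberg. A call needed adjusted p under 0.05 and a fold of at least 1.5. RPM was tested by exact two-sided permutation, raw p over 9 genes and 2 comparisons. Alternatives were DESeq2 1.42.0, limma 3.58.1, other normalizations, filters and leaving out rats. The edgeR and DESeq2 tests were checked on simulated data. Beside the 9 genes, named genes were those of the pathway lists with unadjusted p under 0.05, the 3 of each list highest in RPM, and the first by likeness. Genes and lists were chosen with earlier results of these data known. The labels give each library as a sample of its group and name no litter or day, so p-values measure the spread between these libraries. Of the lists, 4 markers and 10 pathway symbols had no row, and 2 further listed genes are not reported here.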

Additional observations from a re-analysis of the deposited data

Results flagged for a closer look

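C1qa in WTNT replicate 1 of the genotype comparison, at 35.1 RPM, lay apart from the other WTNT rats, the nearest of which had 31.5 RPM, the gap taking a larger share of the group's range than Dixon's 95% limit for 5 samples. Of the 36 groups of values tested this way, 1 was set apart, where about 1.8 would be by chance.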

How the results depend on the processing

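None of the 9 genes was called under any of the 22 alternatives of either comparison in which it was tested, with a lowest adjusted p of 0.778 for genotype and 0.749 for treatment. Of the other complement genes Vtn, Clu and Cd55 were refitted, with a lowest adjusted p of 0.641 (Vtn, genotype) and 0.405 (Cd55, treatment). Of 194 refits of single genes for genotype 189 kept their direction, and of 197 for treatment 184 did. At the library size only, Itgam for treatment was 0.028. With the replicate block, C1qc for genotype was 0.26 and C5ar1 1.34, while for treatment Itgam was 0.011, Itgb2 −0.019, Serping1 0.22, C5ar1 −0.31, C3 0.028 and Vtn 0.079, and the block changed no call. TGTR replicates 5 and 6 had no TGNT rat of the same number. With the block they therefore added nothing to the treatment effect, so the treatment values rest on replicates 1 to 4. The block left 553 genes with an unadjusted p under 0.05 for genotype and 409, in place of 843, for treatment. Same-numbered rats correlated between −0.21 and 0.34 for genotype and between −0.58 and 0.14 for treatment, and not every rat correlated best with its own number. These values do not show that the numbers pair the rats, nor can they exclude it. Leaving out each rat in turn, the median of the 9 genes ran from 0.077 to 0.17 for genotype and from −0.059 to 0.055 for treatment. Log2 fold changes for genotype ran from −0.0039 to 0.11 for C1qa, −0.05 to 0.24 for C3ar1, 0.0038 to 0.17 for C3, 0.0031 to 0.14 for Itgb2, 0.082 to 0.23 for Itgam, 0.081 to 0.21 for C1qb, −0.56 to 0.016 for Serping1 and −0.0066 to 0.12 for Cd55. For treatment they ran from −0.066 to 0.0016 for C1qa, −0.042 to 0.21 for C3ar1, −0.28 to 0.066 for C5ar1, −0.059 to 0.058 for Itgam, −0.024 to 0.052 for Itgb2 and 0.30 to 0.69 for Serping1. In the genotype table the relation of C1qa with C1qb and of C1qb with C1qc ranged from −0.20 to 0.52 and from −0.43 to 0.43 (lowest without TGNT replicate 1). C5ar1 with Serping1 ranged from −0.062 (without TGTR replicate 5) to 0.79 in the treatment table. The cause was not tested for these. C5ar1 was not tested under the 2 filters on low counts for genotype. Under the filter of at least 10 counts in every rat, C3ar1 and Serping1 for genotype and C5ar1 for treatment were not tested either. The count of all genes with an unadjusted p under 0.05, 554 for genotype, was 358 without TGNT replicate 3, 986 without WTNT replicate 3 and 877 without WTNT replicate 5. C5ar1, with 2 to 13 reads per rat in the genotype table, and the terminal pathway genes are limited by depth.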
